A study of Mus musculus with 9 samples.

Results

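Mucins, mesothelin, trefoil factors and the folding enzyme Agr2 were measured in PPTR cells, a mouse intrahepatic cholangiocarcinoma line, with and without a Cas9 cut in Vcam1. The 10 genes were chosen by symbol from a table of 55276 gene symbols: Muc1, Muc4, Muc13, Muc16 and Muc20, Msln, Tff1, Tff2 and Tff3, and Agr2. All 10 were found in the table, and 8 had enough counts to be tested. PPTR cells came from liver cancer organoids of mice with Prom1CreERT2, Ptenflx/flx, Tp53flx/flx and a Rosa-ZsGreen reporter, so that Cre was driven from Prom1 and every group here carried these alleles. The control culture, called WT in the labels and Vcam1ctrl below, was compared with Vcam1KO1 and Vcam1KO2. Each of these is the offspring of 1 cell, so that the effect of the cut and the history of a clone cannot be told apart. All cells were grown as flat cultures in DMEM with fetal bovine serum. RNA of each group was sequenced in 3 libraries, 9 in all, which the study took from different passages. Nothing in the labels says which passage a library came from, so p values measure the spread between these libraries, which may be technical.

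Membrane mucins carry long, heavily O-glycosylated stretches outside the cell and form the brush-like coat on the apical face of ducts and glands, the biliary tree included. Gel-forming mucins are secreted and build mucus, trefoil factors are small secreted peptides that accompany them, and Agr2 is a protein disulfide isomerase of the endoplasmic reticulum in mucus-producing cells. Mesothelin is a lipid-anchored surface protein of mesothelium that many adenocarcinomas, cholangiocarcinoma among them, also make, and the mucin MUC16 is its known binding partner. Several of these proteins serve as tumour antigens in the clinic.

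The starts of the membrane mucin genes are shown because these genes share the direction of change reported below and lie in part side by side. RefSeq start entries were found for 6 of the 10 genes. The 250 bases before the annotated start are given from RefSeq on GRCm38.p6, 5′ to 3′ on the strand of the gene. They lie at chr3:89228806-89229055 (plus strand) for Muc1, chr16:32735636-32735885 (plus) for Muc4, chr16:32797436-32797685 (minus) for Muc20 and chr16:33793787-33794036 (plus) for the first of the Muc13 starts. Capitals mark matches on either strand to CACCTG (an E-box), TGANTCA (AP-1), CAAAGTC (HNF4) or TGTTTAC (FOXA).
Muc1: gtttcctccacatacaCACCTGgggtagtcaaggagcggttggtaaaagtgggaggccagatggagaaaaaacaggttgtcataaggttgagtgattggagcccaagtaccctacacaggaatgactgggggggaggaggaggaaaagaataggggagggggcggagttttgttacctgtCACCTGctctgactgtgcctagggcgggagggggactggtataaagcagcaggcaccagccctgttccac
Muc4: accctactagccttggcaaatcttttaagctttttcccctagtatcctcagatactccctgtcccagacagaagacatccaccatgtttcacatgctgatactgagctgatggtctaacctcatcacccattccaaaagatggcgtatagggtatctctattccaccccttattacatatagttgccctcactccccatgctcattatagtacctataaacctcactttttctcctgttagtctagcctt
Muc20: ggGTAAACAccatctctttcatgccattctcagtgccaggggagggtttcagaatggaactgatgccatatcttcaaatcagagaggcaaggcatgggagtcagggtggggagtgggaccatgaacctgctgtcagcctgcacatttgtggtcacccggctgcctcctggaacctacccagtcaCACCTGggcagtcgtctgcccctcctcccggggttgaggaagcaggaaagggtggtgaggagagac
Muc13: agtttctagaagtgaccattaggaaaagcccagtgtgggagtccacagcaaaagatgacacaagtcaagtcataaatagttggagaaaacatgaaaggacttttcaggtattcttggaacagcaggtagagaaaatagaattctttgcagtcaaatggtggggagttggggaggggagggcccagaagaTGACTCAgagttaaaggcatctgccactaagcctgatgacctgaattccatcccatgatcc
Muc1 held the E-box letters in 2 places, 234 and 70 bases before its start. Muc20 held them in 1 place, 66 bases before its start, and the FOXA letters 248 bases before it. Muc13 held the AP-1 letters 61 bases before the start shown, and Muc4 held none of these 4 motifs. Before the second Muc13 start, whose sequence is not shown, the HNF4 letters stood at 184 bases and the AP-1 letters at 179 bases. Over 32851 windows of this length, 17.2% held CACCTG, 6.75% TGANTCA, 3.84% CAAAGTC and 3.17% TGTTTAC. These matches describe letters and say nothing of binding in these cells.

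Vcam1, the gene the guide cuts in exon 2, had a level of 248, 221 and 329 CPM, counts scaled to the size of the library, in the Vcam1ctrl libraries, 98.8, 92.4 and 128 CPM in Vcam1KO1 and 119, 99.4 and 83.0 CPM in Vcam1KO2, with no overlap between clone and control libraries. Counts do not show whether a transcript is edited. The study reported that both clones had lost Vcam1, by quantitative RT-PCR and flow cytometry. The libraries held 53415907 to 125223073 counts each, and 3 counts, taken here as the limit of detection in a library, stood for 0.0239 to 0.0554 CPM. In either clone replicate 3 stood apart from the other libraries, with a chi-square per degree of freedom of 240 and 275 against 36.0 between the others in Vcam1KO1, and of 166 and 113 against 35.8 in Vcam1KO2. Pairs of control libraries had 84.4 to 169. The epithelial character of the cells differed between the groups. Of 10 cholangiocyte and epithelial markers, 9 were above 1 CPM in every control library and 3 in every library of either clone, and the defining keratins Krt8, Krt18 and Krt19 had mean levels of 5377, 3408 and 2292 CPM in Vcam1ctrl but at most 0.405, 0.0384 and 0.149 CPM in a clone. The defining epithelial markers were thus absent or near 0 in the clones, which are called cholangiocarcinoma cells here by their labels and origin. In these bulk libraries, fewer cells of a type and less RNA per cell cannot be told apart.

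Most of the mucins, mesothelin and the trefoil factors had low or no counts in the Vcam1 knockout clones. In the comparison of the 6 clone libraries with the 3 control libraries, 7 of the 8 tested genes fell and 0 rose, while 43.0% of all 17672 tested genes passed the adjusted p of 0.05 in either direction, 21.2% lower and 21.7% higher. The remaining gene, Tff1, had an unadjusted p of 0.38. In Vcam1KO1 all 8 tested genes fell, where 59.9% of all tested genes passed, 30.0% lower and 29.9% higher, and 33.1% had every library below control. In Vcam1KO2 7 fell, where 51.4% passed, 26.1% lower and 25.3% higher, and 31.4% had every library below control. In these 7 genes no clone library reached the lowest control library, as in 23.0% of all tested genes. Of the 8 genes, 6 passed the filter on low counts through the control libraries alone (Muc4, Muc20, Msln, Tff1, Tff2 and Tff3), so that they could hardly have been tested had they not been higher there, and the count of 7 is a description. Muc1 and Muc13 also passed through a clone. Both clones were compared with the same 3 control libraries.

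**Figure D1:**
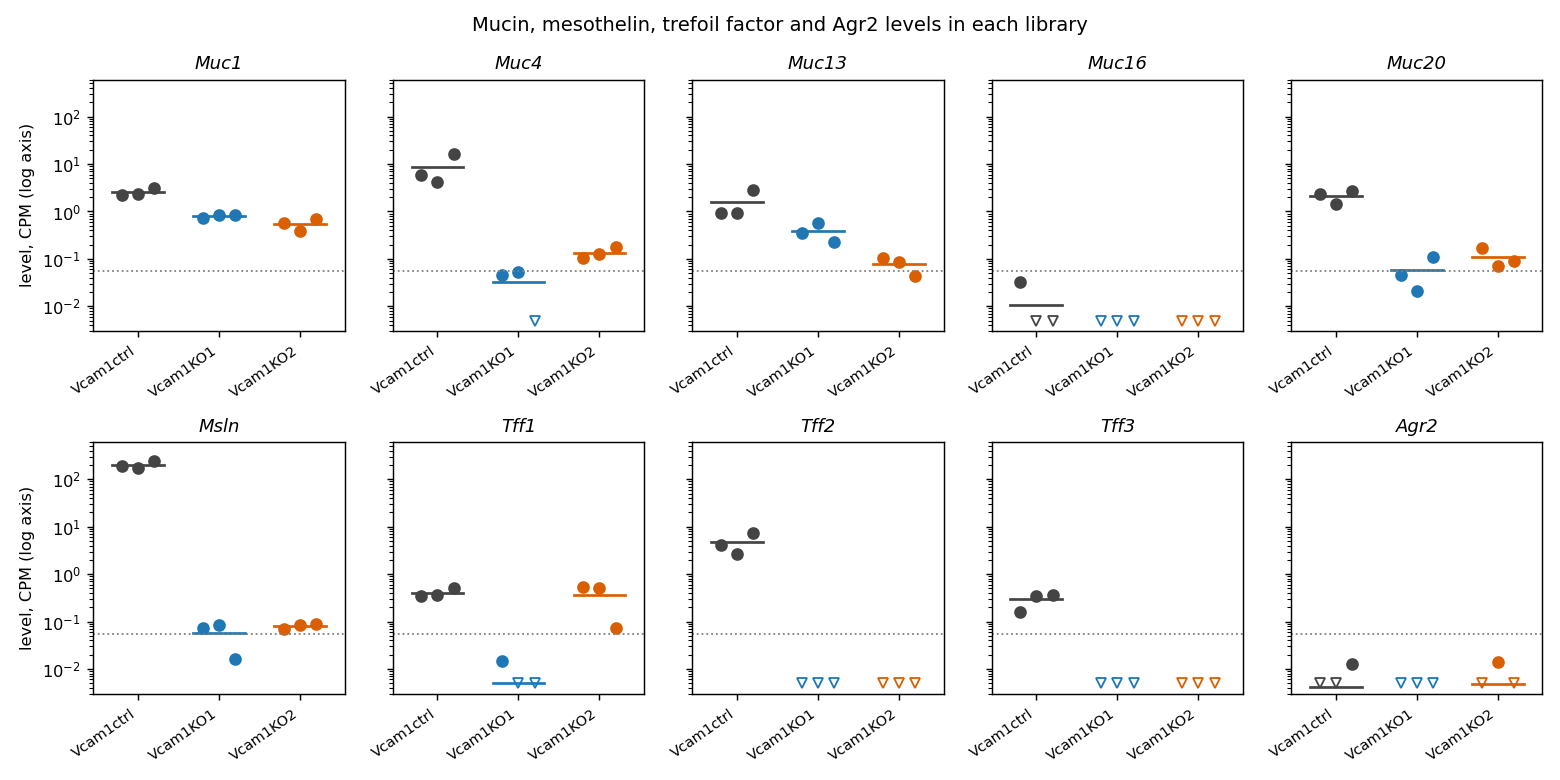
Level of each gene in CPM on a log axis (vertical), in each of the 9 libraries by group (horizontal); filled points are libraries, short lines group means, open triangles libraries with 0 counts, and the dotted line 0.0554 CPM, the highest level that 3 counts stand for in any library. Msln falls from between 169 and 241 CPM to below 0.1 CPM in every clone library, Tff2 and Tff3 to 0 counts, and Tff1 differs between the clones.

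Muc1, the most widely expressed membrane mucin of simple epithelia, fell in both clones and kept a measurable level in each. It stood at 2.26, 2.29 and 3.17 CPM in the Vcam1ctrl libraries, at 0.719, 0.845 and 0.846 CPM in Vcam1KO1 and at 0.565, 0.396 and 0.680 CPM in Vcam1KO2. No clone library reached the lowest control library, and 28 to 81 counts stood behind each clone value. The log2 fold change was -1.93 (standard error 0.29, adjusted p = 0.0007, edgeR) over both clones, -1.68 in Vcam1KO1 and -2.23 in Vcam1KO2. Its log2 difference between the clones was 0.55 (95% interval -0.09 to 1.20, adjusted p = 0.16, edgeR).

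Muc4, a membrane mucin known as a binding partner of the receptor Erbb2, had the largest fitted fall of the 4 tested membrane mucins. Its 95% interval over both clones, -8.45 to -4.90 on the log2 scale, overlapped that of Muc20, -5.85 to -3.49. The level of Muc4 was 5.86, 4.12 and 16.2 CPM in the Vcam1ctrl libraries, 0.0449, 0.0522 and 0 CPM in Vcam1KO1 and 0.103, 0.127 and 0.177 CPM in Vcam1KO2. These clone values rest on 8 counts in the whole of Vcam1KO1 and 27 in Vcam1KO2, against 2242 in the control libraries. The log2 fold change was -6.67 (standard error 0.79, adjusted p = 0.00015, edgeR) over both clones, -7.91 in Vcam1KO1 and -5.98 in Vcam1KO2. Control replicate 3 held more Muc4 than the other control libraries together, and without it the log2 fold change over both clones was -5.87 (adjusted p = 0.00095, edgeR), with -7.11 in Vcam1KO1 and -5.18 in Vcam1KO2. The log2 difference of Vcam1KO1 from Vcam1KO2 was -1.92 (95% interval -3.89 to 0.04, adjusted p = 0.11, edgeR).

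Muc20, a small membrane mucin reported to bind the receptor Met, lies next to Muc4 on the opposite strand of chromosome 16. The spans of these genes (32735886 to 32782391 for Muc4 and 32777419 to 32797435 for Muc20 in GENCODE vM21) share 4973 bases, and exons of their protein-coding transcripts share 381 bases. The counting took account of strand, so that reads of either gene are in principle kept apart. Muc20 stood at 2.28, 1.42 and 2.74 CPM in Vcam1ctrl, 0.0449, 0.0209 and 0.112 CPM in Vcam1KO1 and 0.171, 0.0707 and 0.0887 CPM in Vcam1KO2. No clone library had more than 10 counts, and none reached the control libraries. The log2 fold change was -4.67 (standard error 0.53, adjusted p = 0.00011, edgeR) over both clones, -5.23 in Vcam1KO1 (-6.03 without its replicate 3) and -4.29 in Vcam1KO2. The clones overlapped in Muc20, with a log2 difference of -0.94 (95% interval -2.38 to 0.50).

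Muc13, a membrane mucin of intestinal and biliary epithelium, differed between the clones as well as from control. It lies 996601 bases beyond Muc20 on the same chromosome. Its level was 0.940, 0.923 and 2.90 CPM in Vcam1ctrl, 0.359, 0.574 and 0.223 CPM in Vcam1KO1 and 0.103, 0.0848 and 0.0444 CPM in Vcam1KO2. All clone libraries lay below all control libraries, and all Vcam1KO1 libraries above all Vcam1KO2 libraries. The log2 fold change was -2.02 (standard error 0.55, adjusted p = 0.010, edgeR) in Vcam1KO1 and -4.34 (standard error 0.65, adjusted p = 0.00041, edgeR) in Vcam1KO2. The log2 level in Vcam1KO1 was 2.32 above that in Vcam1KO2 (standard error 0.65, adjusted p = 0.019, edgeR). Over both clones the log2 fold change was -2.75 (adjusted p = 0.013, edgeR), and without control replicate 3 it was -1.99 and no longer passed (adjusted p = 0.082, edgeR). Without that replicate the values in Vcam1KO1 and Vcam1KO2 were -1.26 and -3.58.

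Muc16, the mucin that carries the CA125 antigen and binds mesothelin, was too low to be tested. Control replicate 1 had 4 counts over an annotated transcript of 25437 bases, and the other 8 libraries had 0.

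Msln, the gene of mesothelin, had the highest level per transcript length of the 10 genes in Vcam1ctrl (given below) and was close to the limit of detection in both clones. It lies on chromosome 17 from 25748613 to 25754378, minus strand. The Vcam1ctrl libraries had 188, 169 and 241 CPM, those of Vcam1KO1 0.0749, 0.0835 and 0.0160 CPM and those of Vcam1KO2 0.0685, 0.0848 and 0.0887 CPM. In counts, the control libraries held 9173 to 23648 each and the clone libraries 1 to 8. The log2 fold change was -11.43 (standard error 0.30, adjusted p = 6.2e-08, edgeR) over both clones, -11.62 in Vcam1KO1 and -11.23 in Vcam1KO2. Pooled over libraries, the ratio of control to clone levels was 2818 (95% interval 1974 to 4177, for counting error only). Leaving out each library in turn gave log2 fold changes from -11.58 to -11.24. The log2 difference between the clones was -0.39 (95% interval -1.75 to 0.97).

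Because Msln and Muc16 also mark mesothelium, the other mesothelial markers were read beside them. Their summed level, over 10 genes, was 130 to 219 CPM in Vcam1ctrl, 1.07 to 1.77 CPM in Vcam1KO1 and 16.9 to 18.5 CPM in Vcam1KO2. Most of the control sum was Podxl, the sialomucin podocalyxin, at a mean of 149 CPM. Of the 10 genes, 4 were above 1 CPM in every control library. Besides Podxl these were Dpp4, Upk3b and Gpm6a, with control means of 15.9, 7.39 and 2.65 CPM. Wt1 and Calb2, the genes of a mesothelial transcription factor and of calretinin, had at most 0.351 and 0.0398 CPM in a control library, and Calb2 had 0 counts in all clone libraries. Of the 9 tested markers of the whole list, which holds Msln, 8 fell and 0 rose over both clones, where 21.2% of all tested genes were lower. At a mean of at least 1 CPM, 4 were called lower. No clone library of Msln, Dpp4, Gpm6a, Upk1b, Bnc1 or Pdpn was above 0.152 CPM, the cut of the filter on low counts. These genes could thus hardly have been tested had they not been higher in control, and the count of 8 is a description. Wt1 had a mean of 0.223 CPM in Vcam1ctrl, 0.228 CPM in Vcam1KO1 and 9.42 CPM in Vcam1KO2, and rose in Vcam1KO2 (log2 fold change 5.42, adjusted p = 1.4e-05, edgeR). Over both clones its value was 4.44 (adjusted p = 0.059, edgeR), and 1 marker was called higher with DESeq2, with the average of the contrasts of both clones, or with any library of Vcam1KO1 left out. What part these markers have in the change of Msln was not tested.

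The 3 trefoil factor genes lie within 39972 bases on chromosome 17, all on the minus strand, in the order Tff3 (31125306 to 31129646), Tff2 (31141049 to 31144282) and Tff1 (31161395 to 31165277). They did not change alike. Tff2, the trefoil peptide of mucous neck and gland cells, had 4.10, 2.60 and 7.30 CPM in Vcam1ctrl, from 515, 141 and 577 counts, and 0 counts in all 6 clone libraries. Against the level that 3 counts stand for in a clone library, taken at its highest, Tff2 was at least 90.8-fold lower over both clones (adjusted p = 0.00045, edgeR), at least 97.5-fold in Vcam1KO1 and at least 90.8-fold in Vcam1KO2.

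Tff3, the trefoil peptide of goblet cells and bile ducts, had 0.159, 0.351 and 0.367 CPM in Vcam1ctrl, from 20, 19 and 29 counts. All 6 clone libraries had 0 counts. The same limit gives a level at least 5.69-fold lower over both clones (adjusted p = 0.0022, edgeR), so that these libraries bound the loss of Tff3 less tightly than that of Tff2.

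Tff1, the trefoil peptide of gastric surface cells, fell in Vcam1KO1 and did not pass the test in Vcam1KO2. It had 0.343, 0.369 and 0.519 CPM in Vcam1ctrl (43, 20 and 41 counts). In Vcam1KO1 it had 1 count in replicate 1 and 0 in the others. In Vcam1KO2 it had 0.531, 0.509 and 0.0740 CPM (31, 36 and 5 counts), so that replicates 1 and 2 lay within or just above the control libraries and replicate 3, which stood apart from them over all genes, lay below the controls. The pooled ratio of control to Vcam1KO1 was 90.5 (95% interval 15.9 to 3610, for counting error only), and the fitted difference passed (adjusted p = 0.00083, edgeR). In Vcam1KO2 the log2 fold change was -0.15 (95% interval -1.55 to 1.26, adjusted p = 0.87, edgeR). It was 0.32 (adjusted p = 0.61, edgeR) without replicate 3 of that clone and 0.06 (adjusted p = 0.96, edgeR) without control replicate 3. The clones differed from each other (adjusted p = 0.0024, edgeR), with a pooled ratio of Vcam1KO2 to Vcam1KO1 of 82.5 (95% interval 14.3 to 3302). Over both clones the log2 fold change was -1.13 (adjusted p = 0.49, edgeR). When the contrasts of the clones were averaged instead, it was -3.11 (adjusted p = 0.0040, edgeR).

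Agr2, the disulfide isomerase needed to fold gel-forming mucins, had 1 count in control replicate 3, 1 count in replicate 2 of Vcam1KO2 and 0 in the other 7 libraries. Neither it nor Muc16 was given a fold change. The related Agr3 had 0 counts in all libraries.

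**Figure D2:**
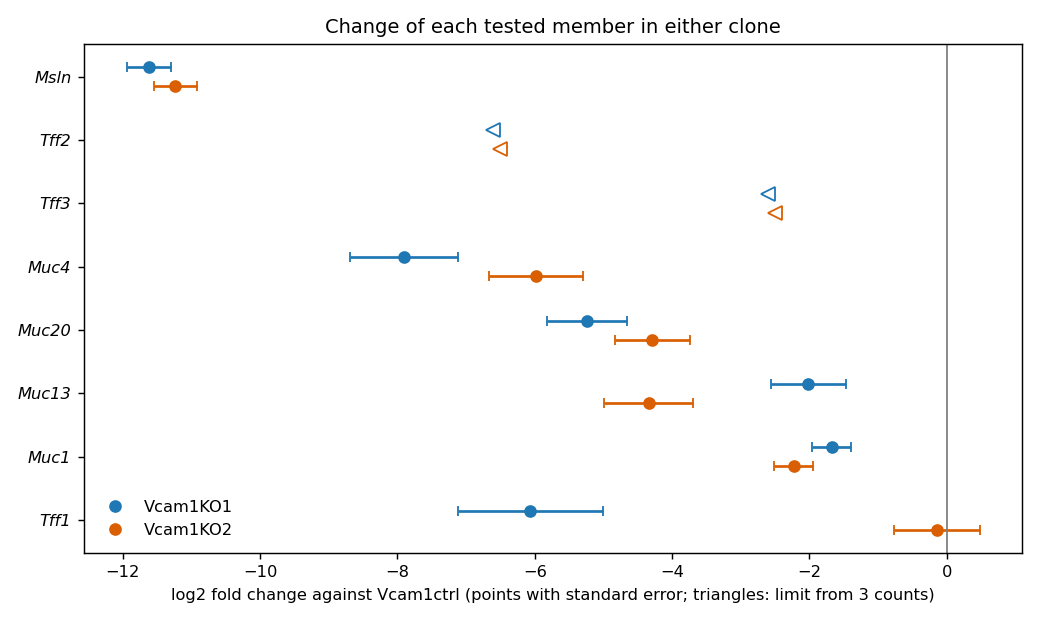
Log2 fold change against Vcam1ctrl (horizontal) of each of the 8 tested genes (vertical), in blue for Vcam1KO1 and orange for Vcam1KO2; points carry the standard error, and open triangles are limits from 3 counts for genes with 0 counts in the clone, whose level may be lower still. Msln lies at -11.62 and -11.23, Muc13 at -2.02 and -4.34, and Tff1 at -6.07 and -0.15, the value of -6.07 being fitted from 1 count.

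Between the clones, 1 of the 8 genes was higher in Vcam1KO1 (Muc13) and 1 lower (Tff1), where 38.7% of all tested genes passed, 20.2% higher and 18.5% lower. In Muc4 and Tff1 every Vcam1KO1 library lay below every Vcam1KO2 library, as in 26.2% of all tested genes. In Muc1 and Muc13 every Vcam1KO1 library lay above every Vcam1KO2 library, as in 28.7%. The other 6 did not pass. Of these, Tff2 and Tff3 had 0 counts in both clones, and the intervals for Muc1, Muc4, Muc20 and Msln given above reach from no difference to more than a doubling on at least 1 side.

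The control libraries themselves differed in these genes. All 8 tested genes had their highest control level in replicate 3. The lowest stood in replicate 2 for 5 of them and in replicate 1 for 3. The highest over the lowest control level was 3.94 for Muc4, 3.14 for Muc13, 2.80 for Tff2, 2.30 for Tff3 and 1.93 for Muc20. For Msln it was 1.42 and for Muc1 1.40. The keratins Krt8 and Krt19 were also highest in replicate 3, by 1.07 and 1.13 over the lowest. Vcam1 was also highest in replicate 3, by 1.49 over the lowest. Col1a1, a fibroblast collagen, was lowest in replicate 3, with a ratio of 2.48 among the control libraries. The share of all tested genes that were highest in replicate 3 was not counted, so this order cannot be called particular to these genes. Whether passage is behind this order was not tested.

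Per kilobase of the longest coding transcript, the mean level in Vcam1ctrl was 92.1 ± 17.0 CPM (SD, n = 3) for Msln, 7.99 ± 4.11 for Tff2 and 1.15 ± 0.23 for Muc1. No control library of Tff2 reached the lowest of Msln, and none of Muc1 the lowest of Tff2. Muc4 (0.775 ± 0.580), Tff3 (0.593), Muc20 (0.585), Tff1 (0.583) and Muc13 (0.534) followed, and the libraries of each overlapped those of its neighbours in this order, Muc1 and Muc4 included. Agr2 and Muc16 came last, at 0.0054 and 0.00042. In Vcam1KO1 the order began with Muc1 (0.358) and Muc13 (0.130), whose libraries did not overlap. In Vcam1KO2 it began with Tff1 (0.528) and Muc1 (0.244), whose libraries did, and all other genes had means of at most 0.0373. Msln, first in the control, came after Muc1 and another gene in both clones, at 0.0268 and 0.0373.

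The nearest tested genes on either side were read beside these genes. Beside Msln, Rpusd1 and Haghl had log2 fold changes over both clones of 0.39 and 0.37, neither past the test (adjusted p = 0.090 and 0.46, edgeR). Beside Tff3, Abcg1, a cholesterol transporter gene 7318 bases away, rose by 2.10 (standard error 0.22, adjusted p = 8.2e-05, edgeR). Beside Muc4 and Muc20, Tnk2 and Rubcn had values of 0.11 and 0.003 (adjusted p = 0.48 and 0.99, edgeR). Beside Muc1, Mtx1 and Trim46 fell by 0.48 and 0.85 on the log2 scale (adjusted p = 0.0046 and 0.022, edgeR). Beside Agr2, Tspan13 fell by 1.65 on the log2 scale (adjusted p = 0.016, edgeR). Heg1 and Itgb5 beside Muc13, Rsph1 beside Tff1, Ahr beside Agr2, and Zfp558 and Olfr839-ps1 beside Muc16 did not pass.

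Among the other mucins, Muc5b and Podxl fell. Of 19 further mucin and mucin-like symbols, 17 were in the table and 9 were tested. Over both clones 4 fell and 0 rose, where 21.2% and 21.7% of all tested genes were lower and higher. Their median log2 fold change was -0.997 against 0.07 over all tested genes. Muc5b, a gel-forming mucin of airway and biliary glands, had 18.8, 9.52 and 62.2 CPM in Vcam1ctrl and 3 counts in all clone libraries together. The pooled ratio of control to clones was 4232 (95% interval 1448 to 20525, for counting error only; adjusted p = 9.0e-06, edgeR). Its control libraries differed by 6.53, with replicate 3 highest again, more than any of the 8 tested genes above. Podxl fell by 5.11 on the log2 scale (adjusted p = 0.0031, edgeR), from 149 CPM to 0.545 CPM in Vcam1KO1 and 8.08 CPM in Vcam1KO2, and its log2 difference of Vcam1KO1 from Vcam1KO2 was -3.89 (adjusted p = 4.8e-05, edgeR). Muc5ac and Mucl3, picked after their values were seen, were the other genes that fell, from 0.619 and 0.538 CPM. Mcam, also picked after its values were seen, rose in Vcam1KO1 (log2 fold change 1.40, adjusted p = 0.0050, edgeR) and fell in Vcam1KO2 (-2.20, adjusted p = 0.0007, edgeR), with a difference of 3.60 between the clones (adjusted p = 0.00012, edgeR). Cd164, a mucin-like sialomucin of many cell types, had 229, 228 and 242 CPM in the 3 groups (log2 fold change 0.04, standard error 0.13).

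The enzymes that build O-glycans on mucins moved in both directions. Of 36 listed enzymes 23 were tested, 8 fell and 5 rose over both clones, where 21.2% and 21.7% of all tested genes were lower and higher. The count that rose was thus near the share over all tested genes. The median log2 fold change of the enzymes was -0.07, against 0.07 over all tested genes. The enzymes that fell most had control levels of 4.28 to 50.4 CPM and at most 0.714 CPM in a clone. B3gnt3, which extends core glycans, fell by 9.44 (adjusted p = 1.4e-06, edgeR), from 47.8 CPM to 0.0879 and 0.0486 CPM in Vcam1KO1 and Vcam1KO2. Gcnt3, the branching enzyme of mucin-type core structures, fell by 8.50 (adjusted p = 1.7e-06, edgeR), from 27.1 CPM to 0.0414 and 0.109 CPM. Galnt3, an enzyme that starts O-glycans, fell by 6.85 (adjusted p = 2.5e-05, edgeR), and Fut2, the secretor fucosyltransferase, by 5.96 (adjusted p = 0.00039, edgeR). The widely expressed starters Galnt1 and Galnt2 had log2 fold changes of -0.57 and 0.32, which did not pass over both clones (adjusted p = 0.073 and 0.053, edgeR). In Vcam1KO1 alone Galnt1 fell by 0.97 and Galnt2 rose by 0.39, and both passed.

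Among the 5 that rose, 4 were sialyltransferases, chosen for naming after their values were seen. St6galnac2 rose by 3.12, St3gal2 by 2.16, St6galnac4 by 2.06 and St6galnac6 by 1.92 on the log2 scale, with adjusted p between 2.7e-06 and 0.0095 (edgeR). St3gal2 reached 373 CPM in Vcam1KO1 and 115 CPM in Vcam1KO2 from 54.7 CPM in Vcam1ctrl. The remaining enzyme that rose, Galnt15, had at most a mean of 0.286 CPM. Sialyltransferase St3gal1, likewise picked after its values were seen, fell in Vcam1KO1 (-1.75) and rose in Vcam1KO2 (0.68), with a tested difference of -2.43 between the clones (adjusted p = 6.3e-06, edgeR).

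**Figure D3:**
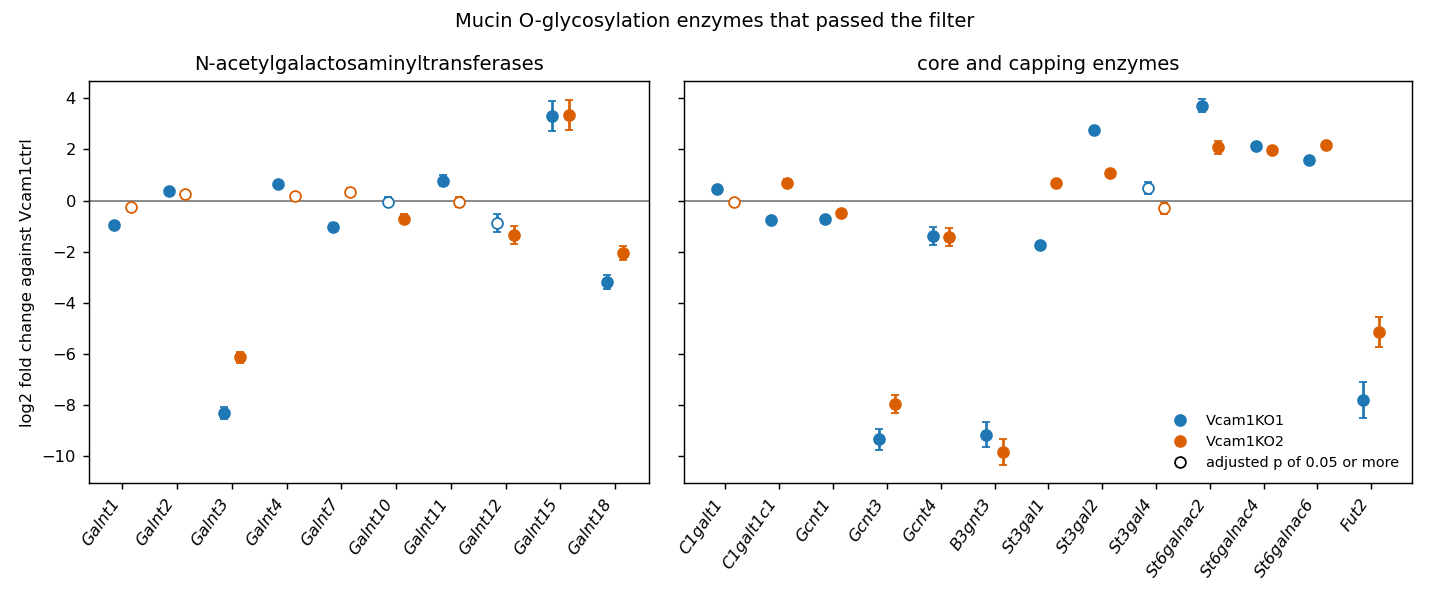
Log2 fold change against Vcam1ctrl (vertical) of the 23 tested O-glycosylation enzymes (horizontal), with standard errors, in blue for Vcam1KO1 and orange for Vcam1KO2; open points did not pass an adjusted p of 0.05. B3gnt3, Gcnt3, Galnt3 and Fut2 lie below -5 in both clones, and St6galnac2, St6galnac4, St6galnac6, St3gal2 and Galnt15 lie above 1 in both.

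Transcription factors of secretory and hepatobiliary epithelium were read as a list, since several are known regulators of mucin and trefoil genes. Of 20 factors 18 were tested, 12 fell and 2 rose over both clones, where 21.2% and 21.7% of all tested genes were lower and higher. The median log2 fold change was -2.27, also with factors at 0 counts set to their limits. Hnf4a, a nuclear receptor of hepatic and intestinal epithelium, had 208, 207 and 264 CPM in Vcam1ctrl and 0 counts in all clone libraries. Its level was at least 4405-fold lower (adjusted p = 7.4e-06, edgeR). Cdx2, the intestinal homeobox factor, went from 18.2, 14.3 and 20.7 CPM to 1 count in all clone libraries together (ratio 7658, 95% interval 1374 to 302541, for counting error only).

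Foxa2 and Klf5 fell to different levels in the clones. Foxa2, a forkhead factor of endoderm, had a mean of 57.3 CPM in Vcam1ctrl, 0.0836 CPM in Vcam1KO1 and 2.27 CPM in Vcam1KO2, and Klf5, a factor of proliferating epithelium, 104, 0.606 and 5.06 CPM. Vcam1KO1 lay below Vcam1KO2 by 4.79 for Foxa2 and by 3.02 for Klf5 on the log2 scale (adjusted p = 6.2e-05 and 0.00027, edgeR). Foxa1 went the other way, from 0.598, 0.517 and 0.746 CPM in Vcam1ctrl to between 8.87 and 12.9 CPM in every clone library (log2 fold change 4.14, standard error 0.25, adjusted p = 3.4e-06, edgeR). Creb3l1, a membrane-bound factor of secretory cells picked after its values were seen, rose by 2.70 (adjusted p = 2.3e-05, edgeR). Sox9, a factor of bile duct cells, had a log2 fold change of 0.67 and did not pass over both clones (adjusted p = 0.15, edgeR). The factors of goblet cells Spdef and Atoh1 were too low to be tested.

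**Figure D4:**
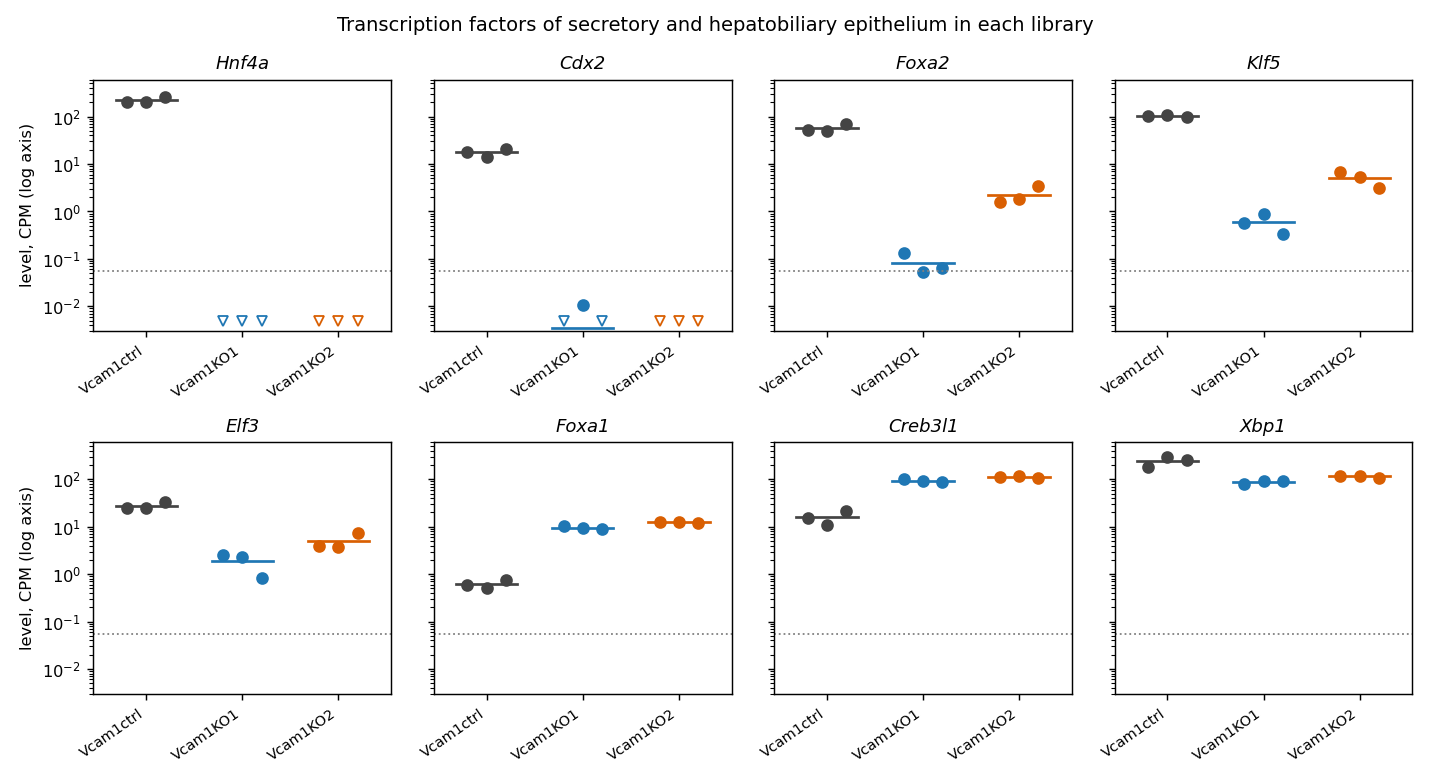
Level of 8 transcription factors in CPM on a log axis (vertical), in each of the 9 libraries by group (horizontal); filled points are libraries, short lines group means, open triangles libraries with 0 counts, and the dotted line 0.0554 CPM, the highest level that 3 counts stand for in any library. Hnf4a has 0 counts in all 6 clone libraries, Foxa2 and Klf5 are lower in Vcam1KO1 than in Vcam1KO2, and Foxa1 rises from below 1 CPM to between 8.87 and 12.9 CPM.

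Protein disulfide isomerases and mucus partners, the group in which Agr2 works, moved in both directions. Of 24 listed genes 13 were tested, 6 rose and 3 fell over both clones, where 21.7% and 21.2% of all tested genes were higher and lower. The count that fell was thus near the share over all tested genes. Pdia6 rose by 1.06 and Pdia4 by 0.86 on the log2 scale (adjusted p = 0.00082 and 0.0086, edgeR), both folding enzymes of the endoplasmic reticulum. Tmx1, a membrane-bound relative, fell by 0.92 (adjusted p = 7.4e-05, edgeR). Olfm4, a secreted glycoprotein of intestinal crypts and bile ducts, fell by 5.45 (adjusted p = 0.00084, edgeR), from a mean of 8.80 CPM. The mucus partners Fcgbp, Clca1, Gkn2 and Pigr were too low to be tested.

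The surface partners of mucins were also read, since membrane mucins are known to bind ERBB receptors, catenins and galectins. Of 14 genes, all tested, 5 fell and 3 rose over both clones, where 21.2% and 21.7% of all tested genes were lower and higher. The count that rose was thus near the share over all tested genes. Erbb3, the kinase-impaired ERBB receptor, fell by 7.38 (adjusted p = 5.0e-06, edgeR), from 21.6 CPM to 0.0751 and 0.184 CPM. Lgals4, a galectin of intestinal epithelium, fell by 5.95 (adjusted p = 5.8e-05, edgeR). The galectins did not move alike. Lgals1, picked after its values were seen, had means of 965 CPM in Vcam1ctrl, 2264 CPM in Vcam1KO1 and 4553 CPM in Vcam1KO2. Lgals3, likewise picked, had 805, 268 and 695 CPM. Egfr fell by 2.12 (adjusted p = 2.4e-05, edgeR) and kept 60.01 and 56.2 CPM in the clones. Erbb2, the partner of Muc4, fell by 1.33 (standard error 0.14, adjusted p = 7.5e-05, edgeR), from 87.9 CPM to 32.4 and 37.6 CPM. Mmp14, a membrane protease that can shed surface mucins, rose by 2.20 (adjusted p = 0.0070, edgeR). Met, the partner of Muc20, fell in Vcam1KO1 by 2.35 (adjusted p = 0.0020, edgeR), and in Vcam1KO2 its value was -0.75 (adjusted p = 0.19, edgeR). The log2 difference between the clones was -1.60 (adjusted p = 0.022, edgeR).

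Markers of other cell types moved with these results. Over both clones 7 of 8 tested fibroblast markers rose and 0 fell, against 21.7% higher and 21.2% lower among all tested genes, and the summed level of all 10 was 427 to 829 CPM in Vcam1ctrl, 12552 to 15969 CPM in Vcam1KO1 and 6761 to 9101 CPM in Vcam1KO2. Postn, a matrix protein of fibroblasts, had a mean of 0.445 CPM in Vcam1ctrl and 2346 and 1210 CPM in the clones. In Vcam1KO1 alone 6 rose and 1 fell, the latter being Dcn, the gene of the proteoglycan decorin, picked after its values were seen. Dcn had means of 74.6 CPM in Vcam1ctrl, 4.34 CPM in Vcam1KO1 and 92.0 CPM in Vcam1KO2. Of the 10 epithelial markers 7 fell and 1 rose, the latter being Spp1, a secreted protein of bile duct cells. The summed haematopoietic markers had 4.12 to 8.41 CPM in Vcam1ctrl and 6.61 to 10.5 CPM in the clones, with 1 of 3 tested markers lower and 1 higher over both clones. The higher marker, Lyz2, passed in Vcam1KO1 and not in Vcam1KO2 (adjusted p = 2.0e-05 and 0.14, edgeR), with a tested difference between the clones of 4.21 (adjusted p = 0.00019, edgeR). Over both clones 0 were called higher with any control or Vcam1KO1 library left out or with limma-voom. The endothelial sum was at most 2.01 CPM in any library, and over both clones 0 of 2 tested markers passed in edgeR (1 at an unadjusted p under 0.05, and 1 called lower with limma-voom or with the average of the contrasts of both clones). In Vcam1KO1 alone Cdh5, an endothelial cadherin picked after its values were seen, fell from a mean of 0.495 to 0.0399 CPM (adjusted p = 0.0076, edgeR). The part of these cell type markers in the changes of the mucins and trefoil factors was not tested.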

How the data were processed

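The authors made stranded mRNA libraries of PPTR cells, 3 per group, and sequenced both ends. The authors pseudoaligned the reads with kallisto 0.46.1, with its stranded setting, to GENCODE transcripts of GRCm38 (mm10 in the submitters' processing notes), and the deposited table holds estimated counts per gene symbol, not normalized. All values were whole numbers and were used as they stand, and 0 columns were left out. How transcripts were summed to genes is not given in the sources used here.

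Counts were filtered with filterByExpr and scaled with TMM in edgeR 4.0.16 (R 4.3.3). The quasi-likelihood test of edgeR was used, and p values were adjusted after Benjamini and Hochberg over all 17672 genes, with a threshold of 0.05. The 6 clone libraries were set against 3 control libraries in a fit with 2 groups; for single clones all 9 libraries entered as 3 groups. This replaces limma-voom, the test of the study, which was run as an alternative. Standard errors were taken from the log2 fold change and F. Intervals are 95%; those of pooled counts are exact and cover counting error only. Depth (53415907 to 125223073 counts) set a floor of 3 counts per library. CPM use TMM-scaled library sizes; a prior count of 2 was added before log2.

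The genes and lists were chosen with earlier results of these data known. From each list, up to 4 genes (6 transcription factors) past the threshold over both clones with a mean of at least 1 CPM were named by size of change; other names are said to be chosen later or are given as background. Some genes that this rule covers are not reported here. Genes alike in pattern were sought by Pearson's r of log2 levels among genes with a mean of at least 5 CPM.

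On simulated counts for the comparison of both clones with control, 106 of 195 genes changed by 2-fold were recovered with the simulated sign (106), and 5 others of 17230 genes were called. Alternatives were upper-quartile scaling, DESeq2 1.42.0, limma-voom 3.58.1, no filter, a mean of at least 1 CPM, each library left out, the average of the contrasts of both clones, and fits on the 6 libraries compared. Positions are from GENCODE vM21, another release than that of the counts, and start sequences from RefSeq (GRCm38.p6). The libraries' passages were not used. Scripts ran in python 3.11.15 with numpy 2.4.6, pandas 2.3.3, scipy 1.17.1 and matplotlib 3.10.9.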

Additional observations from a re-analysis of the deposited data

Results flagged for a closer look

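The change against control of 2 genes differed between the clones by the test of the difference itself. Muc13 was 2.32 higher in Vcam1KO1 than in Vcam1KO2 on the log2 scale (standard error 0.65, adjusted p = 0.019, edgeR), with means of 0.386 and 0.0773 CPM from 93 and 15 counts. It did not pass without replicate 2 of Vcam1KO1 (1.90, adjusted p = 0.064, edgeR), replicate 2 of Vcam1KO2 (2.40, adjusted p = 0.059) or replicate 3 of Vcam1KO2 (2.01, adjusted p = 0.076). Tff1 had a log2 difference of Vcam1KO1 from Vcam1KO2 of -5.92 (standard error 1.07, adjusted p = 0.0024, edgeR), from 1 count in Vcam1KO1 and 72 in Vcam1KO2. With each library left out the value lay between -7.84 and -5.31 and passed each time (adjusted p at most 0.012, edgeR). Among all tested genes, 38.7% differed between the clones.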

How the results depend on the processing

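Of 431 recomputed log2 fold changes of the 8 genes, 422 kept their direction and their side of the threshold, 4 lost and 3 gained a call, and 2 reversed. The reversals were those of Tff1 in Vcam1KO2, to 0.06 without control replicate 3 and to 0.32 without replicate 3 of that clone, within a range of -0.50 to 0.32 over the libraries left out. The counts of called genes were lower at a mean of at least 1 CPM, where low genes are not tested: 4 in place of 7 over both clones, 4 in place of 8 in Vcam1KO1, 4 in place of 7 in Vcam1KO2, 0 in place of 2 between the clones, 2 in place of 4 for the other mucins, 4 in place of 8 for the mesothelial markers and 0 in place of 1 for the lower haematopoietic marker. Between the clones 1 gene was called when only the 6 clone libraries were fitted, where Tff1 did not pass the filter, and 1 to 3 with each library left out. DESeq2 added Muc4 between the clones (-2.001, adjusted p = 0.032), as did leaving out control replicate 3 (-1.93, adjusted p = 0.043, edgeR). With each library left out, 6 to 7 genes were called over both clones, 8 in Vcam1KO1 and 7 in Vcam1KO2. The average of both contrasts gave 8 lower surface partners in place of 5. O-glycosylation enzymes that rose numbered 5 to 8 with each library left out, 8 without replicate 3 of Vcam1KO2. The cause of the changes in these list counts was not tested. No paired analysis was possible because the labels give no replicate numbers, and the numbers 1 to 3 used here only name libraries in accession order. Values below 3 counts per library are limited by depth, as for Agr2, for Muc16 outside control replicate 1, and for Tff2 and Tff3 in the clones.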

Other observations

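The genes most like each mucin over the 9 libraries were sought by Pearson's r of log2 levels. These values describe libraries that differ mainly between control and clones, and many genes share such a pattern. For Msln 533 of 10876 genes had r above 0.95, and the highest were Lad1 (0.9996), Fermt1 (0.9988) and Cdh17 (0.9987), a cadherin of intestinal and biliary epithelium with 586 CPM in Vcam1ctrl and 0.846 CPM in the clones. For Tff2 they were Tmem45b (0.9988), Il22ra1 (0.9977), a subunit of the interleukin receptor of mucosal epithelium with 0 CPM in the clones, and the desmosome gene Dsp (0.9976). Muc4 was closest to Erbb2 (0.996), followed by Ptpre (0.995) and Trim7 (0.994), among 387 genes above 0.95. Muc20 was closest to Frmd4b (0.993), Cables2 (0.990) and Myo5c (0.988), a myosin of exocrine secretion that went from 89.5 CPM to 3.32 CPM. Muc1 was closest to Gm43305 (0.984), Tgfa (0.983), an ERBB ligand gene, and Cachd1 (0.982), and Muc13 to Itga1 (0.979), Tmem135 (0.978) and Efcab14 (0.973), with 148 and 37 genes above 0.95.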
